A study of Rattus norvegicus with 19 samples.

Results

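The circadian clock genes and their PAR-bZIP output genes of the rat liver were followed through 10 genes, namely Bmal1, Per1, Per2, Cry2, Nr1d1, Nr1d2, Dbp, Hlf, Tef and Usp2. Members were all probe sets annotated to exactly 1 of these genes, under its current or an older symbol (Bmal1 is listed as Arntl in older annotation). All 10 genes were found, of 13810 genes with a single-gene probe set, and they had 18 of 31256 probe sets. The first array type held 15 of these and the second 3. The rats were adults that were fasted overnight, given a single intraperitoneal dose, and killed 8 h later. The PCN rats received 100 mg/kg of PCN (pregnenolone-16α-carbonitrile), a steroid drug known as a ligand of the pregnane X receptor of rodents, and the controls received corn oil. The first Affymetrix array type carried 5 PCN and 5 corn oil livers and the second 5 PCN and 4 corn oil livers. The title letters a and b mark the 2 arrays of a biological replicate, and corn oil rat 2 has no array of the second type. Strain, sex and the clock time of dosing or killing are not given in the sources used here. The series asks whether PCN acts on genes apart from drug metabolism.

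The clock is a transcriptional feedback loop. BMAL1 pairs with CLOCK or NPAS2 and activates genes through E-boxes, among them the Period and Cryptochrome genes, whose proteins inhibit BMAL1 and CLOCK, and Nr1d1 and Nr1d2, which encode the REV-ERB receptors that repress Bmal1 through ROR elements. The PAR-bZIP factors DBP, HLF and TEF bind D-boxes and carry the rhythm to liver genes, including genes of drug and heme metabolism, and Usp2 encodes a rhythmic deubiquitinase. In rodent liver Bmal1 is high when Nr1d1 and Dbp are low, so that livers taken at different phases can differ in opposite directions for Bmal1 and for Nr1d1 and Dbp. Per2 peaks later than Nr1d1 and Dbp.

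Promoters are shown because the loop runs through them and because Bmal1 was negatively related to Dbp and Nr1d2 between rats in the data below. Both relations passed the threshold only with corn oil rat 3 included, that of Nr1d2 for 1 of its 3 probe sets. The promoters are from RefSeq, rat assembly GRCr8, and those of 9 of the 10 genes were matched, all but Hlf. Each is the 250 bases before an annotated transcript start, on the strand of the gene. The Bmal1 promoter lies at chr1:176766078-176766327 (plus strand), that of Per2 at chr9:99496994-99497243 (minus strand) and that of the inner start of Nr1d1 at chr10:84229455-84229704 (minus strand). The Dbp promoter lies at chr1:105312006-105312255 (plus strand). Capitals mark a ROR element half-site in Bmal1, a D-box and an E-prime box in Per2 and an E-box in Nr1d1. The Dbp window holds no match and has no capitals.
Bmal1: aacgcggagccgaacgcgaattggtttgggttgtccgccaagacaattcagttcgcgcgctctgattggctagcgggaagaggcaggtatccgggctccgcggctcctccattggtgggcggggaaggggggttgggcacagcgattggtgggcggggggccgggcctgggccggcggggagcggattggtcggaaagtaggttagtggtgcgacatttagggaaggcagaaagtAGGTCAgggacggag
Per2: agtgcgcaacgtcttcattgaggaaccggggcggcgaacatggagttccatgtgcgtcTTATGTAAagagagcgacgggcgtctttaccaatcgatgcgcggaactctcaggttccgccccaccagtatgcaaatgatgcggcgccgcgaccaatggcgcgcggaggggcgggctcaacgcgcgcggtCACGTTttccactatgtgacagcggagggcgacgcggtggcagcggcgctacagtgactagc
Nr1d1: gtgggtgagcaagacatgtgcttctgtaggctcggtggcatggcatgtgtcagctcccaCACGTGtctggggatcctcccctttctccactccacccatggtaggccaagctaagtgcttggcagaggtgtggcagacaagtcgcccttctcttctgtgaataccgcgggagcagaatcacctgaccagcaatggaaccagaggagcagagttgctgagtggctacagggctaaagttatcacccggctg
Dbp: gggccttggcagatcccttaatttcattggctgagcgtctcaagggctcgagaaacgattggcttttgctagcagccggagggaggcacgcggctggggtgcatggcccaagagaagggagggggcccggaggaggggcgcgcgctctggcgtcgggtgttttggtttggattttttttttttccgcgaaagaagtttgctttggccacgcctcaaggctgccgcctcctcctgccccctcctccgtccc
The letters searched, on both strands, were CACGTG (E-box), CACGTT (E-prime box), TTATGTAA and TTACGTAA (D-box) and AGGTCA (ROR element half-site), and no marked sites overlap. The ROR half-site starts 15 bases before the Bmal1 start, and it was also found in Nr1d2 and Usp2. It is present in 14.1% of 33469 promoter windows of the same length. The D-box of Per2, 192 bases before the start, has letters present in 0.828% of windows, and its E-prime box is 62 bases before the start. The E-prime box was also found in Cry2 and at the outer start of Nr1d1 and is present in 4.07% of windows. The E-box stands 191 bases before the inner Nr1d1 start and 198 before that of Tef, and 5.59% of windows hold one. TTACGTAA was in none of the members' windows and is in 0.108% of all windows. A match describes letters, and no binding was measured.

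The data are log2 expression values per probe set as deposited, so a difference of 1 is a doubling. Levels are compared only within a probe set. The hepatocyte markers measured (6 of 7: Alb, Apoa1, Ttr, Serpina1, Cyp2e1 and Cps1) all lay above the level filter, with array means of 14.18 to 14.35 in PCN livers and 14.11 to 14.37 in corn oil livers. Array correlations over tested probe sets averaged 0.97 or more with the other arrays, except for PCN rat 4 at 0.966, corn oil rat 1 of the second type at 0.968 and corn oil rat 2, which stood apart at 0.953. Values without a single rat, or their range, are given below where leaving it out turned the sign or moved the value by over 1.5 times. The labels call the rats biological replicates, and the number of arrays limits the precision.

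No member passed the test of PCN against corn oil. Limma, a moderated linear model, was fitted to 11106 probe sets of the first array type and 10693 of the second, after the dimmest 30% of probe sets by mean level were left out. Of 13 member probe sets tested on the first array type limma called 0, with 2 at an unadjusted p below 0.05, against 3.25% of all probe sets called and 17.7% at an unadjusted p below 0.05. On the second array type it called 0 of 3, with 1 at an unadjusted p below 0.05, against 5.4% called and 27.3% at that unadjusted level. No member had groups that did not overlap, against 6.04% and 10.4% of all probe sets tested. By direction, 0 members were called higher and 0 lower, against 2.31% higher and 0.945% lower over all of the first array type, and 3.76% higher and 1.64% lower over all of the second. In whole liver, fewer cells of a type and less RNA per cell cannot be told apart.

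Among the 13 tested probe sets of the first array type 11 had a positive log2 fold change (PCN minus corn oil) and 2 a negative one, with a median of 0.33. Over all probe sets tested the median was 5.54e-05. Without corn oil rat 3 the members' counts were 10 and 3 with a median of 0.21. Without corn oil rats 2 and 3 together, an alternative chosen after seeing the data, they were 8 and 5 with a median of 0.10. The 3 of the second array type were all positive as deposited, with a median of 0.43 against -0.03 over all. Probe set Per2 1378560_at turned negative there after quantile normalization and after cyclic loess.

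**Figure D1:**
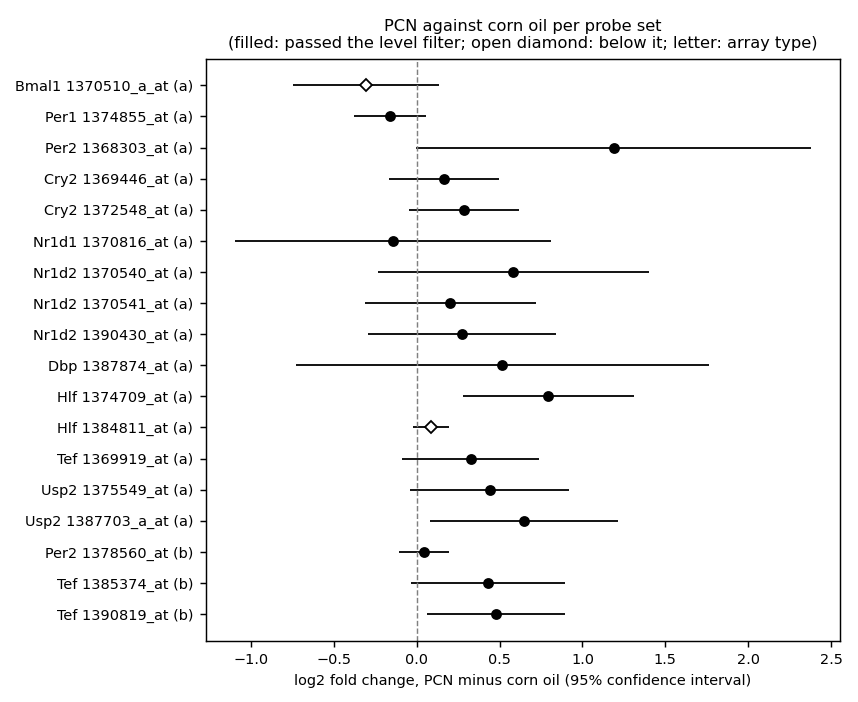
Log2 fold change, PCN minus corn oil, for each of the 18 member probe sets, with 95% confidence intervals from limma. Filled circles passed the level filter, open diamonds lie below it and the letter gives the array type. Per2 1368303_at has the largest value (1.19), and the intervals of Hlf 1374709_at, Usp2 1387703_a_at and Tef 1390819_at lie above 0 before adjustment for multiple tests.

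Bmal1, the activator of the loop, differed more among corn oil livers than between the groups. It read 6.42, 6.50, 6.52, 6.26 and 6.43 in PCN rats 1 to 5, and 6.30, 6.33, 7.61, 6.86 and 6.55 in corn oil rats 1 to 5. The groups overlapped, the PCN livers lay within 0.26 of each other, and corn oil rat 3 stood highest. The log2 fold change was -0.31 (95% confidence interval -0.75 to 0.13), and it was -0.09 without corn oil rat 3. Its only probe set fell below the level filter, so this value comes from the fit of all probe sets (limma, adjusted p = 0.542, and 0.825 without that rat).

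Per2, a Period repressor whose promoter above carries the D-box, had the largest difference. Probe set 1368303_at read 10.08, 8.73, 9.33, 10.07 and 8.78 in PCN rats 1 to 5, and 10.34, 8.64, 7.26, 7.67 and 7.12 in corn oil rats 1 to 5. All 5 PCN livers were above the corn oil mean, yet the highest single value belonged to corn oil rat 1. The log2 fold change was 1.19 ± 0.55 (SE), a 2.28-fold difference with an interval of 0.999 to 5.21 and a limma adjusted p of 0.283. Without corn oil rat 1 it was 1.72 with a limma adjusted p of 0.0336, the only leave-one-out setting in which a member was called. The other Per2 probe set, 1378560_at on the second array type, was almost flat, at 8.30, 8.22, 8.36, 8.40 and 8.38 in PCN rats and 8.30, 8.26, 8.30 and 8.30 in corn oil rats 1, 3, 4 and 5. Its log2 fold change of 0.04 was 0.07 without PCN rat 2 and 0.03 without PCN rat 4. Of these values per rat 4 were identical, PCN rat 1 and corn oil rats 1, 4 and 5. Such identical values occur in 51.5% of probe sets of the second array type and in 0.435% of the first, and their cause was not tested.

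Per1, the other Period gene among the members, was the steadiest tested member of the first array type between rats. It read 9.34, 9.35, 9.24, 9.32 and 9.17 in PCN rats and 9.51, 9.73, 9.35, 9.34 and 9.31 in corn oil rats. None of the 5 PCN livers exceeded the corn oil mean, but the groups overlapped and the log2 fold change of -0.16 had an interval of -0.38 to 0.05 (limma adjusted p = 0.436). It was -0.09 without corn oil rat 2.

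Cry2, the Cryptochrome repressor of the loop, had 2 probe sets with small differences. Probe set 1372548_at averaged 9.10 ± 0.27 in PCN livers and 8.81 ± 0.26 in corn oil livers (SD, n = 5 each), a log2 fold change of 0.29 (interval -0.05 to 0.62, limma adjusted p = 0.367) that was 0.18 without PCN rat 4. Probe set 1369446_at averaged 8.88 ± 0.16 and 8.71 ± 0.34 in the same order of groups, PCN and corn oil. Its log2 fold change of 0.17 was 0.05 without corn oil rat 2, 0.10 without corn oil rat 3, 0.11 without PCN rat 2 and 0.26 without corn oil rat 1. It became -0.07 without corn oil rats 2 and 3 together, which had the lowest readings (8.26 and 8.47).

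The REV-ERB genes, repressors of Bmal1, varied widely within both groups. Nr1d1 read 7.85, 8.89, 8.31, 9.04 and 9.63 in PCN rats 1 to 5, and 8.38, 10.02, 7.50, 9.15 and 9.39 in corn oil rats 1 to 5. Corn oil rats 3 and 2 had the lowest and the highest reading of all 10 livers, which is a range of 2.52 within the control group. The log2 fold change was -0.14 (interval -1.10 to 0.81, limma adjusted p = 0.892), and it was 0.14 without corn oil rat 2 and 0.08 without PCN rat 1. Leaving out other single rats gave -0.49 (without corn oil rat 3) to -0.02 (without corn oil rat 5). Nr1d2 probe set 1390430_at read 9.49, 9.10, 9.26, 9.93 and 9.90 in PCN rats and 9.52, 9.87, 8.32, 9.20 and 9.38 in corn oil rats, with corn oil rat 3 lowest. Its log2 fold change was 0.28 (interval -0.29 to 0.84, limma adjusted p = 0.629), and it was 0.04 without corn oil rat 3, 0.18 without either PCN rat 4 or PCN rat 5, and 0.43 without corn oil rat 2. Probe set 1370540_at was at 0.22 without corn oil rat 2, and 1370541_at ranged from 0.05 without corn oil rat 3 to 0.39 without PCN rat 3. With all rats the 2 probe sets had log2 fold changes of 0.58 (1370540_at) and 0.20 (1370541_at), and both became negative, at -0.11 and -0.09, without corn oil rats 2 and 3 together. The probe sets disagreed in corn oil rat 2, where 1370540_at read 5.46 against 6.28 to 7.79 in the other corn oil livers, while 1390430_at had its highest corn oil reading there.

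**Figure D2:**
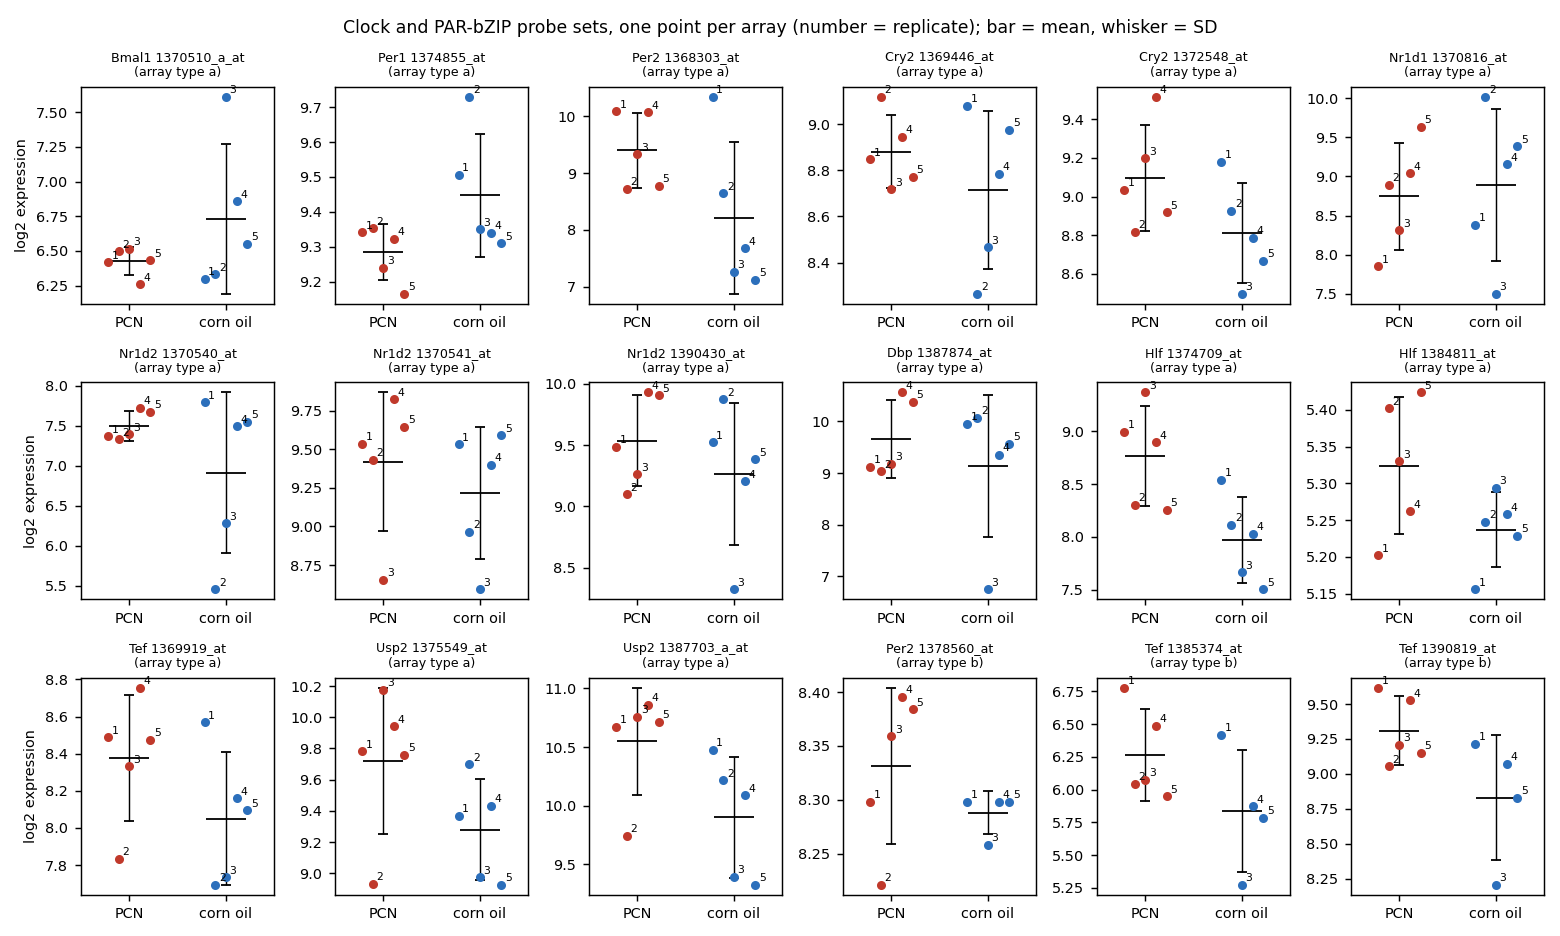
Log2 expression of every member probe set on each array, PCN left and corn oil right in each panel, with the replicate number beside each point, a bar at the mean and a whisker of 1 SD. The corn oil group spans 3.32 for Dbp and 3.22 for Per2 1368303_at, and within that group corn oil rat 3 is at the top for Bmal1 and at the bottom for Dbp, Nr1d1 and 2 of the Nr1d2 probe sets.

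The PAR-bZIP genes had higher means after PCN in every probe set, without a call. Dbp, which encodes a D-box activator under direct BMAL1 and CLOCK control, read 9.12, 9.03, 9.18, 10.56 and 10.38 in PCN rats 1 to 5, and 9.96, 10.07, 6.75, 9.35 and 9.56 in corn oil rats 1 to 5. The PCN livers lay at 2 levels, rats 4 and 5 above rats 1 to 3, and corn oil rat 3 was below all others. The log2 fold change was 0.52 (interval -0.73 to 1.76, limma adjusted p = 0.683), and it was -0.08 without corn oil rat 3, 0.29 without PCN rat 4 and 0.34 without PCN rat 5. Hlf, a D-box activator of the same family, had the smallest adjusted p of the members. Its probe set 1374709_at read 8.99, 8.30, 9.37, 8.89 and 8.26 in PCN rats and 8.54, 8.11, 7.66, 8.03 and 7.50 in corn oil rats. Each PCN liver was above the corn oil mean, but PCN rats 2 and 5 were below corn oil rat 1. The difference was 1.73-fold (log2 0.79 ± 0.24 SE, interval 1.21 to 2.48-fold before adjustment, limma adjusted p = 0.0956), with log2 values of 0.64 to 0.94 when single rats were left out. The other Hlf probe set, 1384811_at, was below the level filter, at 5.32 ± 0.09 in PCN livers and 5.24 ± 0.05 in corn oil livers (SD, n = 5 each).

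Tef, the remaining PAR-bZIP gene, was measured on both array types. Probe set 1369919_at of the first averaged 8.38 ± 0.34 in PCN livers and 8.05 ± 0.36 in corn oil livers (SD, n = 5 each), a log2 fold change of 0.33 (interval -0.09 to 0.74, limma adjusted p = 0.411). On the second, 1390819_at read 9.62, 9.06, 9.21, 9.53 and 9.15 in PCN rats 1 to 5 and 9.21, 8.21, 9.07 and 8.83 in corn oil rats 1, 3, 4 and 5. The lowest reading was again that of corn oil rat 3, and PCN rats 2, 3 and 5 lay below corn oil rat 1. The log2 fold change was 0.48 ± 0.19 (SE, interval 0.07 to 0.90 before adjustment, limma adjusted p = 0.134), and probe set 1385374_at gave 0.43 (limma adjusted p = 0.214). Without corn oil rat 3 these were 0.27 and 0.24. Quantile normalization gave 0.27 for 1390819_at. Over the 9 rats on both array types, Tef deviations from the group mean had the same sign in 8 of 9 for either probe set of the second type, PCN rat 5 being the exception. For Per2, the other gene on both types, the signs matched in 4 of 9 rats.

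Usp2, a rhythmic deubiquitinase that acts on clock proteins, was higher after PCN in 4 of 5 livers than the corn oil mean. Probe set 1387703_a_at read 10.67, 9.74, 10.76, 10.86 and 10.71 in PCN rats 1 to 5, and 10.48, 10.22, 9.39, 10.09 and 9.33 in corn oil rats 1 to 5. PCN rat 2 stood well below the other PCN livers and below 3 corn oil livers. The difference was 1.57-fold (interval 1.06 to 2.32 before adjustment, limma adjusted p = 0.219). Probe set 1375549_at gave 1.36-fold (interval 0.97 to 1.89, limma adjusted p = 0.328), again with PCN rat 2 lowest of its group.

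Rats of the same group differed by more in these genes than in most others. The within-group SD of a probe set, pooled over both groups, was above the 90th percentile of the tenth of probe sets nearest in level for 10 of 13 tested member probe sets of the first array type and for 2 of 3 of the second. It was 1.10 for Dbp, 1.05 for Per2 1368303_at and 0.84 for Nr1d1, each above 99.0% of its neighbours in level, as was Nr1d2 1370540_at with 0.72. For Per1 it was 0.14, above 21.7% of its neighbours. Bmal1, below the filter, had 0.39, above 98.6% of the tested probe sets nearest in level. Hlf 1384811_at, also below the filter, had 0.08, above only 3.06% of them. Per2 1378560_at of the second array type had 0.06, above 2.43% of its neighbours.

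Corn oil rat 3, singled out after its values were seen, deviated in opposite directions for Bmal1 and for Dbp and Nr1d1, genes of opposite phase to Bmal1. Its deviation from the corn oil mean was 0.88 for Bmal1, -2.39 for Dbp, -1.39 for Nr1d1, -0.95 for Per2 1368303_at and -0.94 for Nr1d2 1390430_at. It lay below the corn oil mean in 13 of 15 member probe sets of the first array type and in 3 of 3 of the second. Its array had a mean correlation of 0.974 with the other arrays, and its median absolute deviation was 0.508 over the 15 member probe sets and 0.0887 over all tested probe sets. These 2 medians were 0.431 and 0.107 for corn oil rat 1, 0.398 and 0.154 for rat 2, and 0.354 and 0.101 for rat 5. For corn oil rat 4 they were 0.127 and 0.105. The contrast is thus not particular to corn oil rat 3. The group mean includes corn oil rat 3, so the deviations of the other corn oil livers are pushed the opposite way.

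Other livers combined high and low genes differently. Corn oil rat 1 deviated from its group mean by 2.14 for Per2 1368303_at, 0.57 for Hlf 1374709_at and 0.52 for Tef 1369919_at, and by -0.51 for Nr1d1 and -0.43 for Bmal1. Corn oil rat 2, whose array stood apart, deviated by 1.13 for Nr1d1, 0.93 for Dbp and -0.40 for Bmal1. Corn oil rat 5 was lower for Per2 1368303_at than corn oil rat 3, at -1.09, with 0.50 for Nr1d1, 0.43 for Dbp and -0.18 for Bmal1. Corn oil rat 4 deviated by -0.54 for that Per2 probe set, 0.27 for Nr1d1, 0.21 for Dbp and 0.13 for Bmal1. Among PCN livers, rat 1 deviated by 0.69 for Per2 1368303_at and -0.89 for Nr1d1. PCN rat 5 was the reverse, with -0.62 for Per2 1368303_at and 0.89 for Nr1d1, and PCN rat 4 was above for both, with 0.67 and 0.29. PCN rat 2 deviated by -0.81 for Usp2 1387703_a_at, -0.67 for Per2 1368303_at and -0.54 for Tef 1369919_at. Whether the rats were taken at different clock times cannot be read from the labels, and the part that clock phase plays in these differences was not tested.

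**Figure D3:**
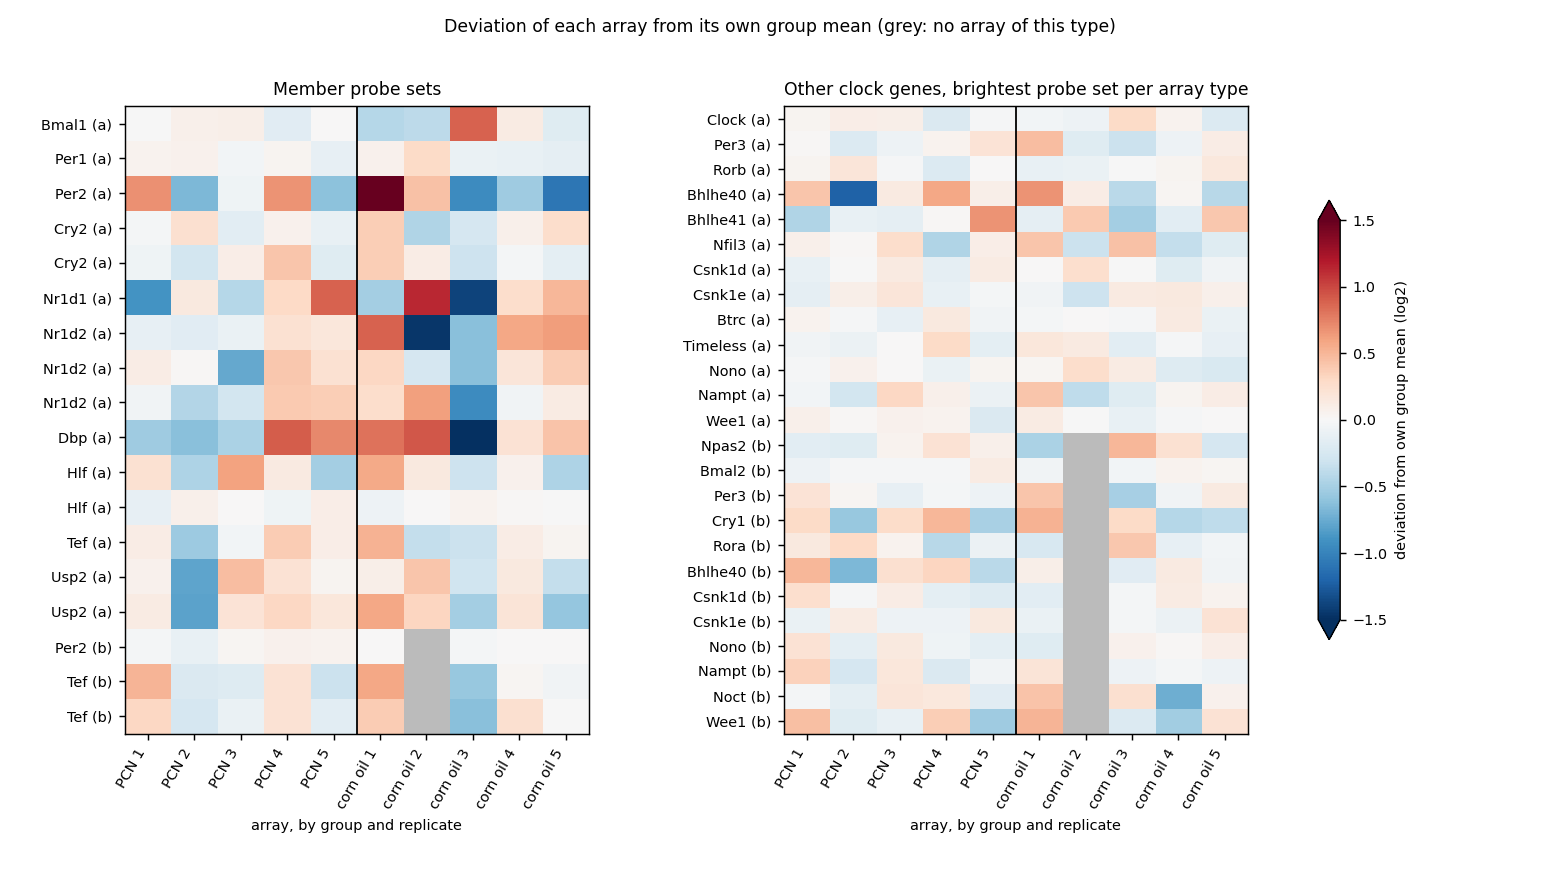
Deviation of each array from its own group mean on the log2 scale (red above, blue below), for the member probe sets (left) and the other clock genes (right), with PCN rats left of corn oil rats and the array type in brackets. Colours saturate at 1.5 in either direction and grey marks the rat with no array of the second type. In corn oil rat 3 Bmal1 is red (0.88) while Dbp (-2.39), Nr1d1 (-1.39) and Per2 (-0.95) are blue.

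Across the 10 rats of the first array type, Bmal1 deviations were set against those of the brightest probe set of each of the 9 other genes, with an exact two-sided permutation of rats within their groups (14400 arrangements). All 9 Pearson correlations were negative, and the 9 pairs share their arrays. For Dbp r was -0.906 (adjusted p = 0.00625 over the 9 relations, exact permutation, n = 10) and Spearman's rho was -0.758 (adjusted p = 0.0488, exact permutation). For Nr1d2 1390430_at r was -0.878 (adjusted p = 0.00625, exact permutation, n = 10) and rho was -0.782 (adjusted p = 0.0488, exact permutation). Unadjusted, the exact permutation p was 0.00139 for r with Dbp and 0.00111 for r with Nr1d2. Without the 2 rats farthest from the median Bmal1 deviation, corn oil rats 3 and 1, r was -0.683 for Dbp and -0.792 for Nr1d2 over 8 rats. Without corn oil rat 3 alone r was -0.605 for Dbp and -0.679 for Nr1d2, and neither passed (exact permutation adjusted p = 0.0625 and 0.0938), so both calls rest on that rat. Both also missed the threshold after quantile normalization (exact permutation adjusted p = 0.0525 and 0.0531), with r of -0.89 and -0.858. Each group holds 5 rats, and no correlation was computed within a group of under 6. The other 5 member probe sets of these genes were related to Bmal1 as well, after the values were seen, with p adjusted over all 14 relations together. For Nr1d2 r was -0.20 with 1370540_at and -0.56 with 1370541_at (exact permutation adjusted p = 0.737 and 0.208), so the Nr1d2 relation passed for only 1 of its 3 probe sets. With this adjustment p was 0.00972 for both Dbp and Nr1d2 1390430_at (exact permutation).

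The other 7 relations did not pass. They had r of -0.652 for Cry2 (exact permutation adjusted p = 0.0775), -0.603 for Per2, -0.601 for Nr1d1, -0.52 for Usp2, -0.518 for Per1, -0.424 for Tef and -0.355 for Hlf. For Tef and Hlf r was 0.08 and 0.03 without corn oil rats 3 and 1.

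**Figure D4:**
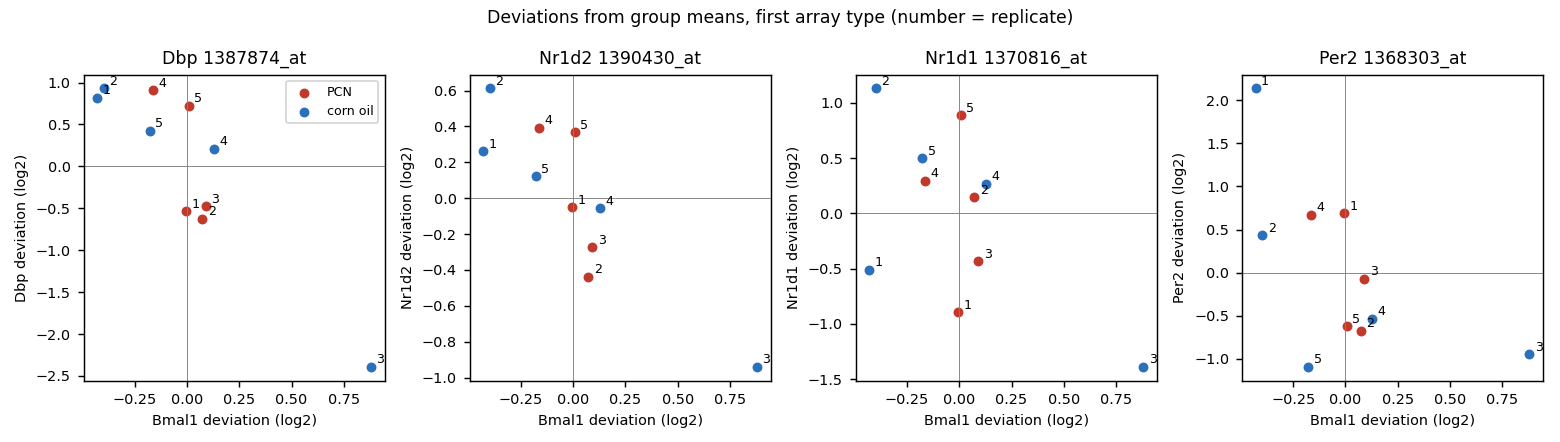
Deviation from the group mean of Dbp, Nr1d2, Nr1d1 and Per2 (vertical axes, log2) against that of Bmal1 (horizontal axes, log2), 1 point per rat with its replicate number, PCN red and corn oil blue. Corn oil rat 3 lies far to the lower right in all 4 panels, and PCN rats span only 0.26 in Bmal1.

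The other clock genes, a list of 23 partners, kinases, ligases and outputs, gave no calls. Of 8 tested on the first array type limma called 0, with 0 at an unadjusted p below 0.05 (3.25% and 17.7% over all probe sets), and the median log2 fold change was -0.03 against 5.54e-05 over all probe sets. Of 11 tested on the second it called 0, with 2 at an unadjusted p below 0.05 (5.4% and 27.3% over all), and the median was 0.22 against -0.03 over all. Among those tested, the smallest p values were those of Noct and Nono on the second array type. Noct, a rhythmic phosphatase of liver metabolism, read 8.58, 8.46, 8.80, 8.77 and 8.44 in PCN rats 1 to 5 and 8.31, 8.12, 7.14 and 7.94 in corn oil rats 1, 3, 4 and 5. Its groups did not overlap, and the log2 fold change of 0.73 ± 0.19 (SE) had a limma adjusted p of 0.0508. It passed under 4 alternatives, namely the 50th percentile filter, a common median, array weights and leaving out PCN rat 5 (limma adjusted p of 0.0469, 0.0459, 0.0205 and 0.0384). The last 2 of these called 1475 and 1477 of all 10693 probe sets, against 577 as reported. Without corn oil rat 4, the lowest reading, the log2 fold change of Noct was 0.48 (limma adjusted p = 0.0821). The other single rats left out, apart from PCN rat 5, gave limma adjusted p of 0.0507 to 0.109. Nono, a nuclear cofactor of PER proteins, had a log2 fold change of 0.29 ± 0.11 (SE) with groups that did not overlap and a limma adjusted p of 0.118, while its probe set on the first array type had 0.02.

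Clock and Npas2, partners of Bmal1, and Rora and Per3 were looked at in corn oil rat 3 after its values had been seen. Clock read 8.79 there, against 8.29 to 8.55 in the other corn oil livers by the same probe set. On the second array type Npas2, below the level filter, read 5.53 in that rat and 4.55, 5.26 and 4.78 in corn oil rats 1, 4 and 5. Npas2 averaged 4.55 ± 0.17 in PCN livers (SD, n = 5) and 5.03 ± 0.45 in corn oil livers (SD, n = 4). In the fit of all probe sets its log2 fold change was -0.48 (interval -0.84 to -0.12, limma adjusted p = 0.118). Rora, which encodes an activator of Bmal1 at ROR elements, read 8.82 there and 8.18, 8.30 and 8.38 in the others, while Per3, a Period gene, read 6.55 against 7.46, 6.99 and 7.18. Over the whole list corn oil rat 3 was the highest corn oil liver in 2 of 13 probe sets and the lowest in 4 of 13 of the first array type. It was highest in 2 and lowest in 3 of 12 of the second. Over all tested probe sets it was highest in 17.4% and lowest in 13.7% for the first array type, with 22.6% and 26.0% for the second.

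Targets of the PAR-bZIP factors were taken from a list of 4. Alas1, which encodes the first enzyme of the heme pathway, rose by 1.74 on the log2 scale (limma adjusted p = 0.000119), while Por, whose product passes electrons to cytochromes P450, rose by 1.27 (limma adjusted p = 0.000751), both without overlap between groups. These are also genes that drug receptors induce, and both were known from earlier results of these data. Nr1i3, the CAR receptor gene, had 0.33 ± 0.25 (SE, limma adjusted p = 0.546) and Ppara, a fatty acid sensor, 0.27 ± 0.25 (SE, limma adjusted p = 0.615). In corn oil rat 3, where Dbp was lowest, Alas1 read 11.29 and the other corn oil livers 11.40 to 11.94, while Por read 11.32 within the corn oil range of 10.95 to 11.67. The 11.40 was that of corn oil rat 2, which had the highest Dbp of the corn oil livers (10.07). Corn oil rat 2 was also the lowest of its group for Por (10.95), Nr1i3 (7.34) and Ppara (7.27).

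Glucocorticoid and fasting responsive genes, which respond to signals known to set the liver clock, gave no calls either. Of 10 tested on the first array type limma called 0, with 0 at an unadjusted p below 0.05, and of 2 on the second it called 0, with 1 at an unadjusted p below 0.05. Over all probe sets 3.25% and 5.4% were called and 17.7% and 27.3% had an unadjusted p below 0.05. The 1 gene of this list at that unadjusted level was Fkbp5, a glucocorticoid target. Its log2 fold change was 0.33 ± 0.11 (SE, limma adjusted p = 0.0992) on the second array type and 0.21 ± 0.14 on the first. Angptl4, a fasting induced inhibitor of lipoprotein lipase, had -0.82 ± 0.51 (SE, limma adjusted p = 0.439), with 9.18, 11.45, 11.58, 9.15 and 11.53 in PCN rats 1 to 5 and 10.57, 11.67, 11.57, 11.43 and 11.77 in corn oil rats 1 to 5. The log2 fold change of Angptl4 was -0.47 without either PCN rat 1 or PCN rat 4. PCN rats 1 and 4 and corn oil rat 1, the 3 livers with the highest Per2 1368303_at, had the lowest Angptl4. The same 3 livers were lowest for Cpt1a (12.61, 12.33, 11.87), Igfbp1 (10.58, 11.58, 11.78) and Pck1 (13.05, 12.91, 13.33), in that order. They were also lowest for Pdk4 on the second array type (10.10, 9.42, 9.89). On the first, corn oil rat 2 had the lowest Pdk4 (7.73). Fkbp5, Tsc22d3, Sgk1, Tat and Dusp1 were not lowest in these 3 livers. These matches were noticed after the values were seen, and their part in the Per2 difference was not tested.

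The genes whose deviations were most like those of Dbp across the 10 arrays were, among tested single-gene probe sets, Gpx1 (r = 0.946), Hsd17b2 (0.938), Gtf2a2 (0.918), Ywhae (0.915), C9 (0.914) and Ypel5 (0.911). The most opposite were Oprk1 (r = -0.945), Lxn (-0.922), Cdkn1a (-0.919) and Apba2 (-0.919). These are Pearson correlations given as a description, since the genes were picked for them, and the points share arrays. Hsd17b2, an enzyme that inactivates sex steroids, read 12.56, 12.59, 11.87, 13.06 and 13.32 in PCN rats 1 to 5 and 13.03, 13.27, 10.28, 13.01 and 13.27 in corn oil rats 1 to 5. Cdkn1a, the cell cycle inhibitor p21, read 8.09, 8.09, 7.94, 7.78 and 7.83 in PCN rats and 8.04, 8.36, 9.90, 8.51 and 8.14 in corn oil rats. Corn oil rat 3 was the lowest liver for Hsd17b2 and the highest for Cdkn1a. Without it the correlations with Dbp were 0.742 for Hsd17b2, -0.658 for Cdkn1a, 0.893 for Gpx1 and 0.922 for Gtf2a2.

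Marker lists of other cells gave no calls in either direction on either array type. At an unadjusted p below 0.05 there were 2 of 4 stellate markers, 2 of 2 red cell markers and 1 of 1 tested neutrophil marker on the first array type, and 1 of 1 macrophage marker, 1 of 2 endothelial markers and 1 of 1 lymphocyte marker for the second. Over all probe sets 17.7% and 27.3% were at that level. On the first array type Hbb and Alas2 were lower after PCN (log2 fold change -0.39 and -0.59) and S100a9 was higher (0.58). The stellate markers split there, with Col1a1 and Col3a1 higher (0.41 and 0.43) and Des and Lrat lower (-0.06 and -0.16). On the second, Cd163 (0.40) and Lyve1 (0.39) were higher and Cd3e (-0.15) was lower. Mean levels of the red cell markers Hbb and Alas2 ran from 11.51 to 12.37 in PCN livers and from 12.07 to 12.47 in corn oil livers, with corn oil rat 3 at 12.28. Those of the stellate markers ran from 8.78 to 9.01 in PCN livers and from 8.50 to 8.96 in corn oil livers, with corn oil rat 3 at 8.53. Their part in the members' values was not tested.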

How the data were processed

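Adult rat livers, PCN and corn oil, were measured on 2 Affymetrix array types. Each deposited table holds log2 values, 1 per probe set and array. MAS5 is named, without a version, in the submitters' processing notes, and background correction, summarization and normalization are not given in the sources used here. The base was inferred as 2, since the top reading of 15.2 is over the natural log of a full scan of the largest range (11.1) but under its log2 (16.0). Arrays have no sequencing depth, and their number limits precision.

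Tables were analysed alone, as deposited. The first held 15923 probe sets (12789 with a single gene, 312 with several, 2822 with none) and the second 15333 (7570, 100 and 7663). Symbols were updated by gene identifier to RefSeq, assembly GRCr8. The 57 control probe sets of each and those whose mean level was under the 30th percentile (6.67 and 5.51) were left out. Each probe set was tested with limma 3.58.1 (R 4.3.3), treatment as the only term, moderated variances with an intensity trend, two-sided, Benjamini-Hochberg over the whole table, threshold 0.05. The 2 members below the filter come from a fit of all probe sets. Deviations, permutations and figures used Python 3.11.15 with numpy 2.4.6, pandas 2.3.3, scipy 1.17.1 and matplotlib 3.10.9.

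The genes named are all members, the called genes and the 2 smallest p of each list, and the 6 most and 4 least alike to Dbp. Outside that rule stand Clock, Npas2, Rora, Per3 and the glucocorticoid and fasting genes other than Fkbp5 and Angptl4, named after their values were seen. Nr1i3 and Ppara, as the rest of their list, and markers also stand outside it. Members, lists and tests were chosen with earlier results of these data known. Alternatives were no filter or the 50th percentile, common median, quantile and cyclic loess normalization, replicate number as a block, other variance models, array weights and leaving out single rats. One, leaving out corn oil rats 2 and 3 together, was added after seeing the data, as were the relations of Bmal1 with other probe sets.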

Additional observations from a re-analysis of the deposited data

Results flagged for a closer look

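Each group of each member probe set, 36 in all, was searched for a single array farther from its neighbours than the 95% limit of Dixon's test, and 3 had one. Chance alone gives about 1 in 20 groups. Dbp in corn oil rat 3 read 6.75, against 9.35 to 10.07 in the other corn oil livers. Usp2 1387703_a_at in PCN rat 2 read 9.74, against 10.67 to 10.86 in the other PCN livers. Per2 1378560_at on the second array type read 8.26 in corn oil rat 3 and 8.30 in the other 3 corn oil livers, whose values are identical, so that this gap is only 0.04 on the log2 scale.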

How the results depend on the processing

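Calls in all were 361 (256 higher, 105 lower) for the first array type and 577 (402 higher, 175 lower) for the second. Quantile normalization gave 247 higher and 181 lower for the first, and a common median gave 518 higher and 72 lower for the second. With array weights they were 1051 and 1475, and with the replicate number as a block 239 and 202. They ranged from 154 to 447 and from 84 to 1477 when single rats were left out, and were 166 on the first without corn oil rats 2 and 3 together. The replicate block called no member. Under it, 4 of 13 member probe sets of the first type had an unadjusted limma p below 0.05 (1751 of 11106 over all). For the second type, fitted without PCN rat 2, these were 2 of 3 and 2445 of 10693. As reported, without the block, the members' counts were 2 and 1. Over all tested probe sets same-numbered rats did not deviate together (r of -0.301 to 0.284 for the first type, 0.02 to 0.201 for the second). The numbers were therefore not taken to pair rats. Yet Nr1d1 deviations had the same sign in both groups for each replicate number, and the block lowered the SE from 0.438 to 0.246. Dbp deviations differed in sign for rats 1 and 2. With the block the SE was also lower for, among others, Nr1d2 1370541_at (0.114 against 0.236) and Tef 1385374_at (0.103 against 0.229 without PCN rat 2). It was higher for both Cry2 and both Usp2 probe sets, Hlf 1384811_at and Per2 1378560_at. Whether same-numbered rats deviate together over the members as a set was not tested. Members called were 0 as reported, 4 with array weights (Per2 1368303_at, Hlf 1374709_at and both Usp2 probe sets, with log2 fold changes of 1.71, 0.94, 0.60 and 0.88) and 0 to 1 when single rats were left out. Array weights down-weight whole arrays, and the cause of these calls was not tested. The sign turned for Nr1d1 (0.0814 without PCN rat 1, 0.14 without corn oil rat 2, single-rat range -0.489 to 0.14), Dbp (-0.0798 without corn oil rat 3, single-rat range -0.0798 to 0.75), Per2 1378560_at (-0.0652 after quantile normalization, -0.0309 after cyclic loess), and, without corn oil rats 2 and 3 together, Cry2 1369446_at (-0.0665), Nr1d2 1370540_at (-0.112) and Nr1d2 1370541_at (-0.0892). Of the other member values 335 kept direction and side of the threshold and 5 passed it. Passing Bmal1 relations numbered 2 as reported, 0 after quantile normalization and 0 to 4 when single rats were left out, with 0 without corn oil rat 3 and 4 without corn oil rat 5. With Hlf 1384811_at in place of the brighter Hlf probe set r turned to 0.441. The relations could not be run on the second array type, which was not used for Bmal1.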
